A study of Homo sapiens with 2 samples.

Results

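The genes described here belong to families in which some members restrain or report signalling through RAS and the kinase ERK. They were chosen by name: every row of the gene table that lists a protein-coding transcript and is named DUSP with a number, SPRY1 to SPRY4, SPRED1 to SPRED3, ETV1 to ETV7 or RASA1 to RASA4. There were 40 such genes among 15780 protein-coding rows and 30856 rows in all. They comprised 22 dual-specificity phosphatases (10 MAP kinase phosphatases, or MKPs, and 12 atypical ones), 4 Sprouty, 3 SPRED, 7 ETV and 4 RASA genes.

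Poly(A) RNA was sequenced from THP-1 cells, an acute monocytic leukaemia line. A library came from cells selected in cytarabine (Ara-C), an analogue of cytidine that blocks DNA synthesis, at concentrations raised stepwise, starting at 5 nM and ending at 10 µM. Per the labels, they counted as resistant once they doubled as fast as untreated cells. The other library came from untreated parental THP-1 cells, kept in the same medium. Each group held 1 library, so no difference below has a replicate check, and the sources used here do not say whether the resistant cells were a clone or whether Ara-C was present at harvest.

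ERK is the last kinase of a relay that runs from growth factor receptors through RAS, RAF and MEK. Active ERK induces its own brakes: MKPs remove the activating phosphates from MAP kinases, Sprouty and SPRED proteins damp the signal at and above RAF, and the ETS factors ETV1, ETV4 and ETV5 (the PEA3 group) carry the signal to target genes. RASA proteins are GTPase activators that switch RAS off. In myeloid leukaemia this relay is often driven by mutated RAS or receptor kinases.

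The promoters of 5 members are shown, because these genes represent the directions described below: DUSP1, SPRED1 and SPRY2 were lower in resistant cells, DUSP6 was at a like level and RASA3 was higher. Each line gives 250 bases upstream of the RefSeq transcription start (GRCh38.p14), 5′ to 3′ along the gene. Capitals mark matches on either strand to CGGAAG (an ETS core), TGACGTCA (a cyclic AMP response element), TATAAA and GGGCGG (a GC box); matches may overlap or touch.

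DUSP1, chr5:172771196-172771445, minus strand: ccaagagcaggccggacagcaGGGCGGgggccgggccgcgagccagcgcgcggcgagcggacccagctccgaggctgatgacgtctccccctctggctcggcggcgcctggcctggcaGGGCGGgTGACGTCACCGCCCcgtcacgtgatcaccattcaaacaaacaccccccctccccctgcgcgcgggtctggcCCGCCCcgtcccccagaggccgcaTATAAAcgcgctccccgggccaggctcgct
SPRED1, chr15:38252586-38252835, plus strand: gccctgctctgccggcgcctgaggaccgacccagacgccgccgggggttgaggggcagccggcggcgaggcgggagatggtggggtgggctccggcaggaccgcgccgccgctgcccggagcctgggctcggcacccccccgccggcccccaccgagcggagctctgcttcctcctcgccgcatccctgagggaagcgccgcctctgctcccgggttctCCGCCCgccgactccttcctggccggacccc
SPRY2, chr13:80341127-80341376, minus strand: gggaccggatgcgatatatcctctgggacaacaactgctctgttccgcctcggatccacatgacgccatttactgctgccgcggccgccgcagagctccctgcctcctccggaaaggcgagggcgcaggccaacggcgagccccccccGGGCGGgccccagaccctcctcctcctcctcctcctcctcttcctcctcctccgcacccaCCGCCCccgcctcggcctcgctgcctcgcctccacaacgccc
DUSP6, chr12:89352502-89352751, minus strand: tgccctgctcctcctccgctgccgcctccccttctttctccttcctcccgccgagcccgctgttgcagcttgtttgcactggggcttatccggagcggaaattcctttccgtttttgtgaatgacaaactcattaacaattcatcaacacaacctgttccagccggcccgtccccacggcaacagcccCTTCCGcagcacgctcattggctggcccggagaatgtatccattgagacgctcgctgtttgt
RASA3, chr13:114132624-114132873, minus strand: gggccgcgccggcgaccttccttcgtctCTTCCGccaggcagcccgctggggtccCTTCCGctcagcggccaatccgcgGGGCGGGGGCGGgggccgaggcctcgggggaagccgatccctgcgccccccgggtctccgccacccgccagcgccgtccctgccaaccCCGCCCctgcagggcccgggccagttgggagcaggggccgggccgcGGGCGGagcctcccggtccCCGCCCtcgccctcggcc

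RefSeq promoters were used for 30 of the 40 members. None was matched for ETV4, ETV5, ETV7, DUSP5, DUSP12, DUSP27, RASA2 or RASA4, and those of DUSP4 and DUSP26 are not reported here. The ETS core lay in 5 of the 30 (16.7%) and in 16.4% of 34943 promoter windows of the same length. DUSP6 held it at position -62 from the start, and RASA3 held it at -222 and -195. The cyclic AMP element lay in 3 of the 30, those of DUSP1 (-125), DUSP8 (-118 and -74) and ETV2 (-60), and in 1.63% of all windows. GC boxes lay in 24 of the 30 and in 42.5% of all windows; the median GC content was 69% in the members and 58% over all windows. TATAAA was found in the DUSP1 window alone among the members (-30), against 10.8% of all windows. The AP-1 site TGANTCA and the serum response CArG box were in 0 of the 30 windows, against 6.59% and 1.16% of all windows. These are letter matches and say nothing of binding.

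The libraries held 58285463 counts for resistant and 57434972 counts for parental cells, with 5.92% and 5.96% from mitochondrial transcripts. Of 12 monocyte and myeloid markers, 10 reached 1 FPKM (a fragment count scaled for transcript length and library size) in a library. The summed level of all 12 was 407 FPKM in resistant against 535 in parental cells, a gap that lay almost wholly in LYZ. The myeloid regulators SPI1 (62.3 against 64.4 FPKM) and CEBPA (141 against 139) were at like levels, and at least 1.5-fold lower were LYZ (95.8 against 225), CSF1R (7.74 against 12.2) and MPO (0.94 against 2.81). FCGR1A, a monocyte Fc receptor, was higher (41.2 against 29.6 FPKM; count ratio 1.39, 1.35 to 1.44). CD14, a defining monocyte marker, was near 0 in both (0.03 against 0.50). Of 16 markers of other blood and non-blood cells, 7 were measured, with a summed level of 30.5 against 34.3 FPKM, nearly all of it from PECAM1 and NCAM1. CD79A, ITGA2B, KRT18 and COL1A1 were at or under 0.21 FPKM, and 9 of the 16 were not analysed here. In bulk RNA, fewer cells of a kind and less RNA per cell cannot be told apart. The part of these marker differences in the results below was not tested.

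Most of the members differed little between the libraries, and the larger differences were mostly downward and in genes of low level. Of the 40 members, 24 reached 1 FPKM in a library. Their measure was log2((FPKM resistant + 1)/(FPKM parental + 1)), in which the added 1 FPKM shrinks differences of low genes. On that scale 0 of the 24 were 2-fold apart in either direction. Of 10321 protein-coding genes that reached 1 FPKM, 0.504% were 2-fold or more higher and 1.16% were 2-fold or more lower. At least 1.5-fold lower were 2 of the 24, ETV4 and DUSP27, against 4.51% of all genes. No member of the 24 was at least 1.5-fold higher, against 2.17%. The median log2 ratio of the 24 was -0.03, beside -0.02 for all 10321 genes, with 10 members above 0 and 14 below.

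**Figure D1:**
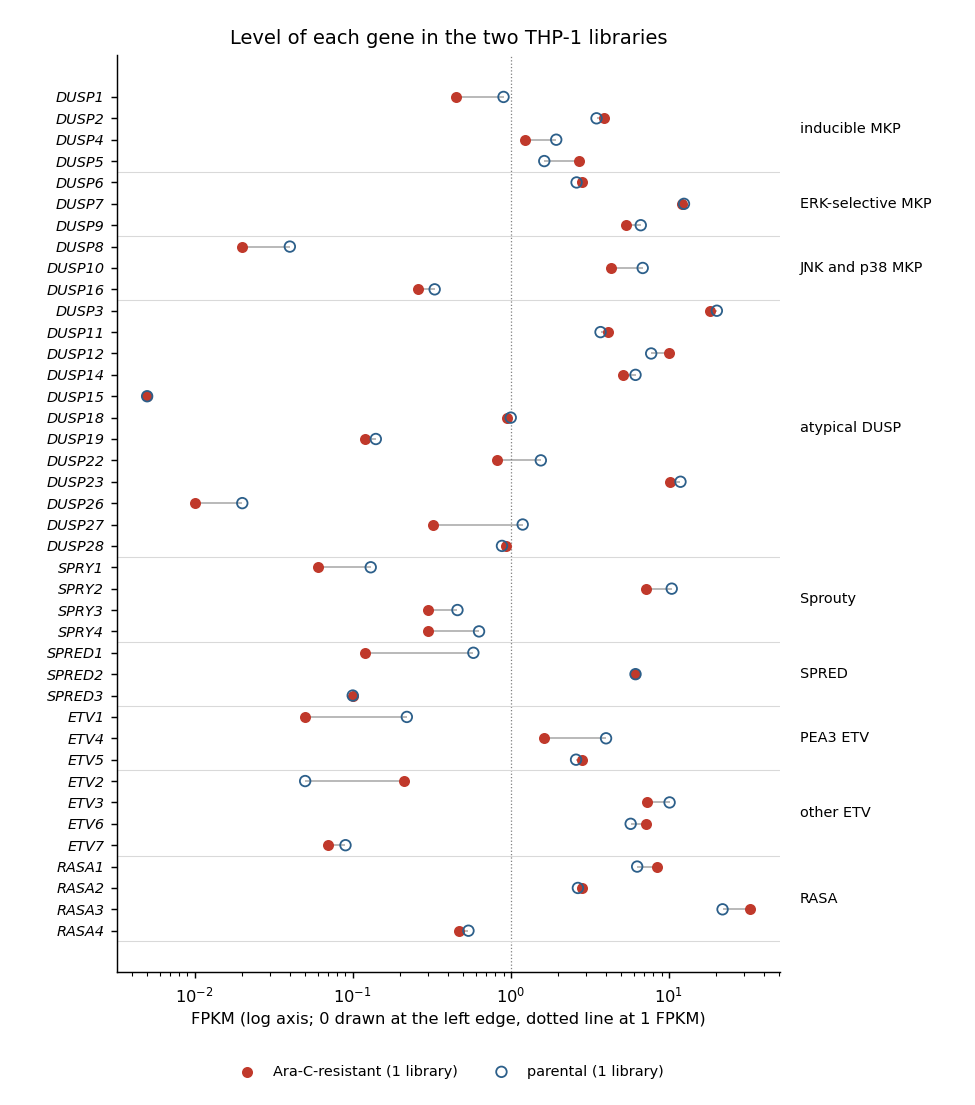
FPKM of all 40 genes on a log axis, grouped by family; filled points are the resistant library and open points the parental library, 1 library each. RASA3, DUSP3 and DUSP7 had the highest levels, and the widest gaps lay mostly to the left of 1 FPKM, as for SPRED1 at 0.12 against 0.58.

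The counts were also compared without an added constant, as the ratio of each gene's count relative to the library total, with an exact 95% interval. The interval covers counting error only, since without molecular identifiers read pairs need not be independent molecules. At least 100 counts in a library were reached by 32 members. Of these, 5 were at least 2-fold lower (ETV1, ETV4, SPRED1, SPRY4 and DUSP27), which is 15.6%, against 5.23% of 11666 protein-coding genes; none was 2-fold higher, against 1.94%. At least 1.5-fold lower were 10 of the 32 (31.3%), against 10.7% of all genes, and 1, DUSP5, was at least 1.5-fold higher, against 5.31%. The 5 others past 1.5-fold lower were DUSP1, DUSP4, DUSP10, DUSP22 and SPRY3. RASA3 (log2 count ratio 0.58), SPRY3 (-0.61) and SPRY4 (-1.03) lay close to these lines: with median-of-ratios or TMM scaling RASA3 passed 1.5-fold, and with TMM scaling SPRY3 fell short of 1.5-fold and SPRY4 of 2-fold.

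Genes of low count differed more often in the whole table, so the shares were read by count. With at least 100 but fewer than 1000 counts in the higher library, 9 of 18 members were at least 1.5-fold lower, against 23.5% of 3575 genes, and 1 of 18 was as much higher, against 11.1%. With 1000 or more counts, 1 of 14 members (DUSP10) was at least 1.5-fold lower, against 5.07% of 8091 genes, and 0 of 14 were higher, against 2.76%. The counting interval lay below equal levels for 16 of the 32 members, against 41.4% of all genes, and above for 7, against 32.8%. With 1 library a group these shares are descriptions and carry no test.

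**Figure D2:**
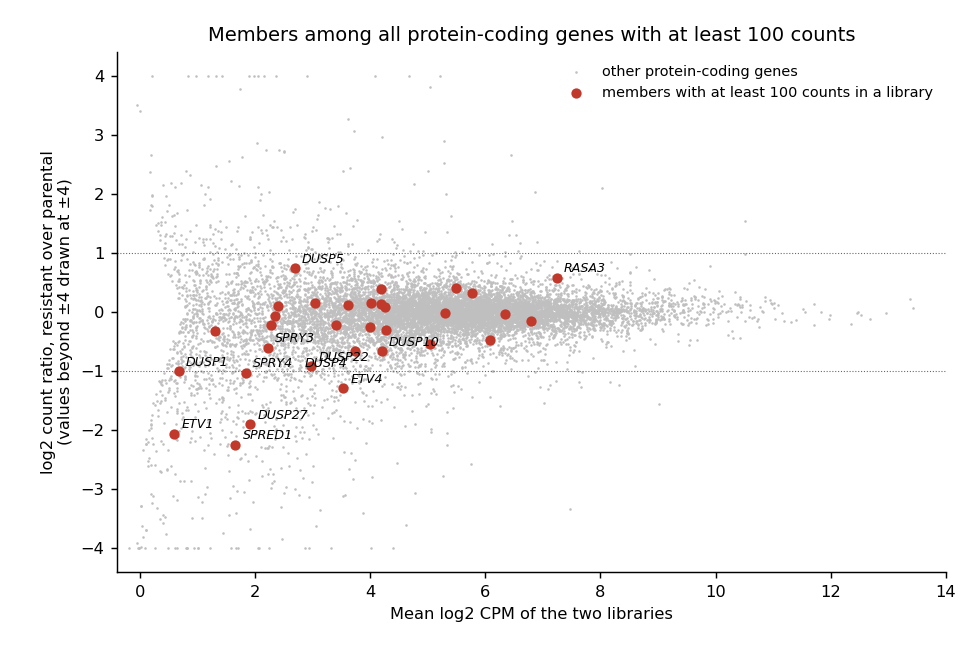
Log2 count ratio, resistant over parental, against mean log2 CPM (counts scaled to library size) for protein-coding genes with at least 100 counts in a library; red points are the 32 members and dotted lines mark 2-fold. The members below the lower line (ETV1, SPRED1, DUSP27, ETV4 and SPRY4) all lay left of 4 on the horizontal axis, where the grey cloud is wide.

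Among the nuclear MKPs, which are induced by the kinases they silence, DUSP5 was higher and DUSP1 and DUSP4 were lower in resistant cells. DUSP5, which is specific for ERK, had 469 counts (2.72 FPKM) in resistant and 277 counts (1.63 FPKM) in parental cells, a ratio of 1.67 (1.44 to 1.94). DUSP4, which acts on ERK, JNK and p38, had 607 against 941 counts (1.23 against 1.94 FPKM) and was 1.57-fold lower (1.42 to 1.75). DUSP1, an immediate early gene with a preference for p38 and JNK, had only 62 against 122 counts (0.45 against 0.90 FPKM) and was 2.00-fold lower (1.46 to 2.76), just short of the 2-fold line. The interval of DUSP2, a phosphatase of blood cells, held equal levels, at 506 against 450 counts (3.87 against 3.49 FPKM; ratio 1.11, 0.974 to 1.26). Members of this subgroup thus lay on both sides, and its summed level was 8.27 against 7.96 FPKM. DUSP5 shared no 100-base stretch with another gene in GENCODE transcripts, and its pseudogene row DUSP5P1 had 240 against 226 counts.

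Of the cytoplasmic, ERK-selective MKPs, DUSP6 and DUSP7 were near equal and DUSP9 was slightly lower in resistant cells. DUSP7, the most abundant MKP, had 4686 against 4718 counts (12.2 against 12.5 FPKM; ratio 0.979, 0.940 to 1.02) and made up 36.7% of the summed FPKM of the 10 MKPs in resistant and 33.8% in parental cells. DUSP6, the phosphatase most widely used as a readout of ERK activity, had 737 against 672 counts (2.81 against 2.61 FPKM; ratio 1.08, 0.972 to 1.20). DUSP9 had 1012 against 1229 counts (5.38 against 6.65 FPKM) and was 1.23-fold lower (1.13 to 1.34). The summed level of the 3 genes was 20.4 against 21.7 FPKM.

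Of the MKPs directed at JNK and p38, DUSP10 was the one at a substantial level. It had 826 counts (4.30 FPKM) in resistant and 1292 counts (6.84 FPKM) in parental cells and was 1.59-fold lower (1.45 to 1.73). DUSP16 had 128 against 157 counts (ratio 0.803, 0.631 to 1.02), and DUSP8 had 8 against 13 counts. Over the 7 MKPs that reached 1 FPKM the median log2 ratio was -0.03, with 3 above 0, and the summed level of all 10 was 33.2 against 36.9 FPKM.

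**Figure D3:**
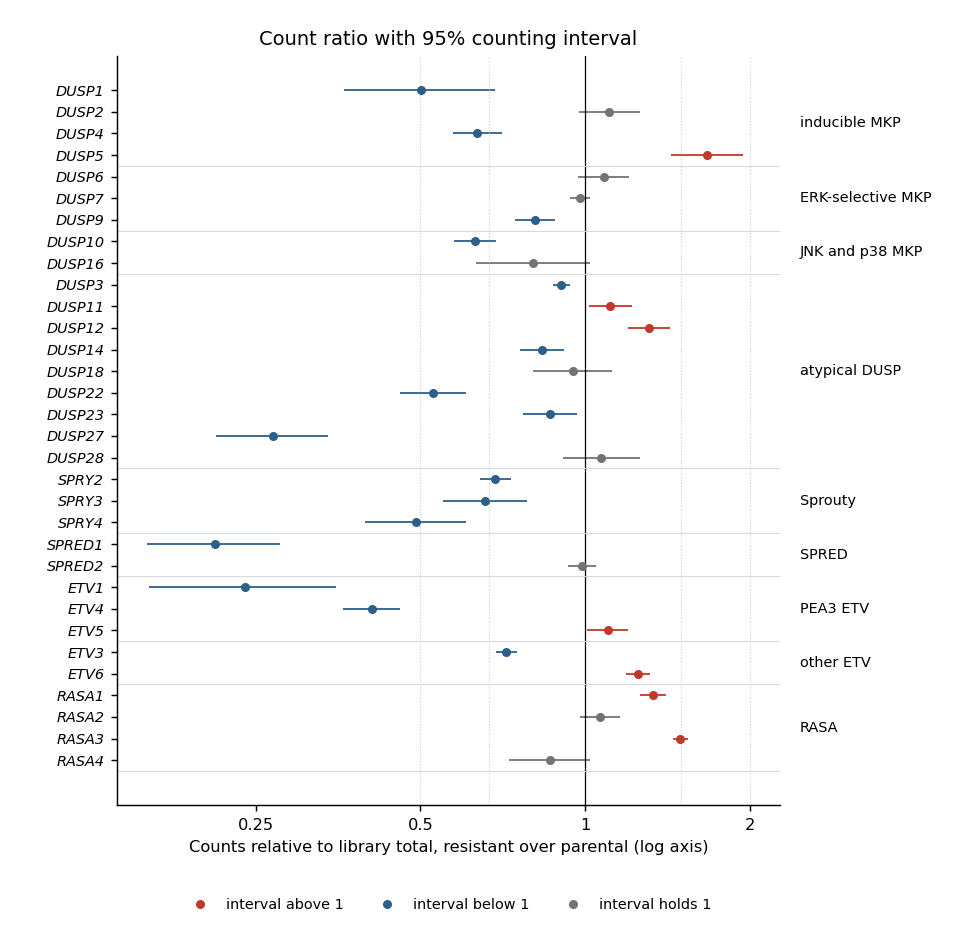
Ratio of counts relative to the library total, resistant over parental, on a log axis for the 32 members with at least 100 counts in a library; bars are 95% counting intervals, red above 1, blue below 1 and grey holding 1. DUSP5 and RASA3 lay farthest to the right, and SPRED1, ETV1 and DUSP27 farthest to the left.

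The atypical phosphatases lack the kinase-binding domain of the MKPs and include enzymes with substrates other than MAP kinases. Of the 12, 8 reached 1 FPKM, with a median log2 ratio of -0.17 and 2 above 0. Over all 10321 expressed protein-coding genes the median was -0.02, with 4699 above 0. With no minimum level, the median of the 12 was -0.03. DUSP3 (VHR, which can dephosphorylate ERK and JNK) was the most abundant, with 6168 against 6716 counts (18.2 against 20.2 FPKM; ratio 0.905, 0.874 to 0.937). DUSP12, a zinc-binding phosphatase, was the highest relative to parental cells, with 1210 against 911 counts (10.1 against 7.74 FPKM; ratio 1.31, 1.20 to 1.43). DUSP11, which acts on RNA 5′ ends, was at 4.10 against 3.70 FPKM (ratio 1.11, 1.02 to 1.22).

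DUSP27, also known as STYXL2, is a muscle-associated protein that lacks the catalytic cysteine. It had 93 counts (0.32 FPKM) in resistant and 341 counts (1.19 FPKM) in parental cells and was 3.72-fold lower (2.95 to 4.73). DUSP22, a regulator of JNK and of immune receptor signalling, had 316 against 590 counts (0.82 against 1.55 FPKM) a ratio of 0.528 (0.459 to 0.606). It lies near the start of chromosome 6 (291630 to 351355), where 1 of its 10 nearest expressed neighbours was above 0 and their median log2 ratio was -0.22, beside -0.49 for DUSP22 on the same scale.

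DUSP14, a negative regulator of TAB1 signalling, was at 5.12 against 6.16 FPKM (ratio 0.834, 0.760 to 0.915), and DUSP23 was at 10.2 against 11.9 FPKM (0.862, 0.769 to 0.966). Both were slightly lower by counts. The intervals of DUSP18 (288 against 299 counts), DUSP28 (318 against 293) and DUSP19 (45 against 52) held equal levels. DUSP28 overlaps ANKMY1 on the other strand (1213 against 982 counts), and DUSP18 overlaps SLC35E4 there (86 against 155 counts). Summed over all overlapping genes on both strands, the ratios were 1.18 (1.10 to 1.28) for DUSP28 and 0.860 (0.749 to 0.986) for DUSP18. A mixing of strands was not tested. DUSP26 had 2 against 3 counts. DUSP15 had 0 counts in each library, a reading that still permits as many as 3.

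The count ratios of all 4 Sprouty genes were below 1, but only SPRY2 reached 1 FPKM in a library, and it carried the family. The 3 that reached 100 counts in a library had intervals below equal levels, against 41.4% of 11666 protein-coding genes. SPRY2, which binds CBL and GRB2 and interrupts receptor-to-RAS signalling, had 1555 counts (7.13 FPKM) in resistant and 2236 counts (10.4 FPKM) in parental cells and was 1.46-fold lower (1.37 to 1.56). It made up 91.5% of the summed Sprouty level in resistant and 89.5% in parental cells. SPRY4 had 137 against 275 counts (0.30 against 0.63 FPKM) and was 2.04-fold lower (1.65 to 2.52). SPRY3 had 216 against 324 counts (1.52-fold lower, 1.28 to 1.82), and SPRY1 had only 16 against 38 counts (2.41-fold lower, 1.31 to 4.63). The summed level of the 4 genes was 7.79 against 11.7 FPKM. SPRY3 overlaps TMLHE on the other strand, which had 548 against 519 counts, and with the strand setting of the counting unknown the reads of the pair may be mixed. The 20 expressed neighbours of SPRY2 had a median log2 ratio of -0.15, beside -0.49 for SPRY2.

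Of the SPRED genes, SPRED1 was much lower and SPRED2 was equal. SPRED1, which recruits the RAS GTPase activator neurofibromin to the membrane, had 64 counts (0.12 FPKM) in resistant and 299 counts (0.58 FPKM) in parental cells and was 4.74-fold lower (3.61 to 6.31). SPRED2, a relative with a like role, had 2268 against 2262 counts (6.07 against 6.16 FPKM; ratio 0.988, 0.932 to 1.05). SPRED2 was 96.5% of the summed SPRED level in resistant and 90.1% in parental cells, so the sum differed little (6.29 against 6.84 FPKM). SPRED3 was at 43 against 39 counts. SPRED1 lies on chromosome 15 from 38252836 to 38357249, where its 20 expressed neighbours had a median log2 ratio of -0.03.

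In the PEA3 group, ETV4 and ETV1 were lower and ETV5 was not. ETV4, a transcriptional activator and common ERK target, had 391 counts (1.63 FPKM) in resistant and 945 counts (4.01 FPKM) in parental cells and was 2.45-fold lower (2.18 to 2.77). On the FPKM + 1 scale its log2 ratio of -0.93 ranked 151 from the lowest of 10321 genes. ETV1 had 34 against 140 counts (0.05 against 0.22 FPKM) and was 4.18-fold lower (2.86 to 6.27). ETV5 had 1113 against 998 counts (2.83 against 2.59 FPKM; ratio 1.10, 1.01 to 1.20). ETV4 was thus the most abundant of the 3 in parental cells and ETV5 in resistant cells.

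ETV4 lies on chromosome 17 from 43527844 to 43546340 and overlaps DHX8, a helicase gene on the other strand, which had 5770 against 5988 counts. Summed over both genes the ratio was 0.876 (0.846 to 0.906), dominated by DHX8; a mixing of strands was not tested. ETV5 overlaps DGKG on the same strand, and its transcript shared 1.65% of its 100-base stretches with that gene. DGKG had 1414 against 1169 counts, and the same-strand sum of the pair had a ratio of 1.15 (1.08 to 1.22). Whether reads of DGKG enter the small ETV5 difference was not tested.

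The remaining ETV factors had mixed differences. ETV6 (TEL), a repressor needed for blood stem cells and a fusion partner in leukaemia, had 3512 against 2769 counts (7.16 against 5.74 FPKM; ratio 1.25, 1.19 to 1.31). ETV3, a repressor linked to macrophage growth arrest in mouse, had 3295 against 4524 counts (7.24 against 10.1 FPKM) and was 1.39-fold lower (1.33 to 1.46). Together ETV3 and ETV6 held most of the summed ETV level: ETV6 had 37.3% of it in resistant and 25.2% in parental cells, and ETV3 had 37.7% and 44.3%. ETV2, a factor of blood and vessel specification, had 32 against 8 counts (ratio 3.94, 1.78 to 9.90), and ETV7 had 12 against 15. Both were at or under 0.21 FPKM.

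RASA1 and RASA3 were higher in resistant cells, and RASA3 set the level of the family. RASA3, an activator of RAS and RAP1 GTPase activity that binds inositol phosphates, was the most abundant of all 40 genes in both libraries, with 10560 counts (32.6 FPKM) in resistant and 6971 counts (21.9 FPKM) in parental cells, a ratio of 1.49 (1.45 to 1.54). RASA1 (p120 RasGAP) had 2977 against 2206 counts (8.38 against 6.31 FPKM; ratio 1.33, 1.26 to 1.41). The interval of RASA2 held equal levels (1155 against 1068 counts; ratio 1.07, 0.980 to 1.16). The summed level of the 4 was 44.3 against 31.4 FPKM, and RASA3 made up 73.6% of it in resistant and 69.7% in parental cells.

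RASA3 lies near the end of chromosome 13 (113977783 to 114132623), a stretch of generally higher genes. All 13 of its nearest expressed neighbours were above 0, with a median log2 ratio of 0.36, beside 0.55 for RASA3. From STK24 to the end of the chromosome, 35 of 41 other expressed genes were above 0 (median 0.34), and RASA3 was higher than 36 of them. RASA1 overlaps CCNH on the other strand, which had 3589 against 2982 counts. Its 20 neighbours had a median of 0.01, beside 0.36 for RASA1.

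RASA4, a calcium-triggered RAS GTPase activator, cannot be read on its own, since 73.9% of the 100-base stretches of its transcript occur in other genes. RASA4 had 260 against 297 counts (ratio 0.863, 0.728 to 1.02), whereas its near-identical copy RASA4B had 388 against 740. Summed with RASA4B, RASA4CP and RASA4DP, the count was 776 against 1221, a ratio of 0.626 (0.572 to 0.686). AC105052.1 and AC093668.2 also share stretches with RASA4 and were left out of this sum. On the same strand RASA4 overlaps 2 rows named AC105052, at 264 against 517 and 23 against 53 counts. RASA4 summed with these 2 rows had a ratio of 0.622 (0.558 to 0.693).

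**Figure D4:**
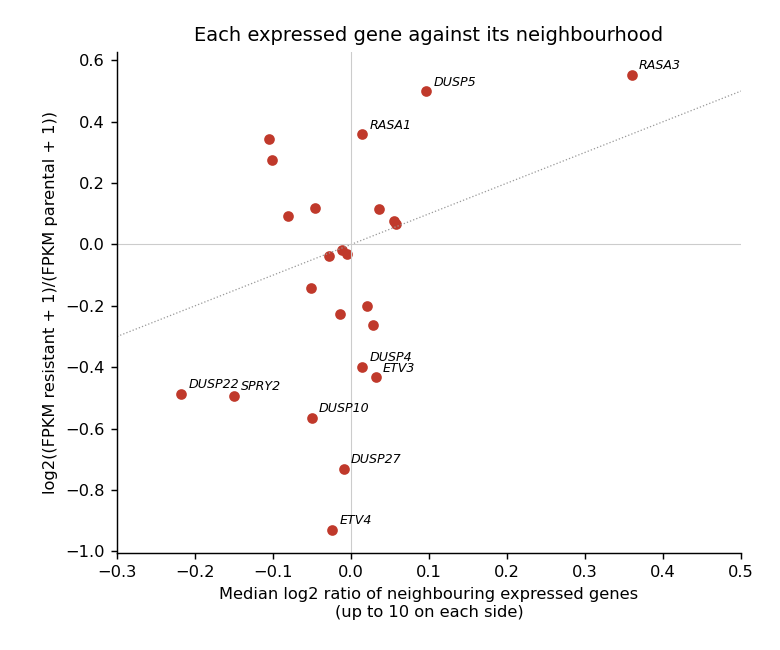
Log2((FPKM + 1) ratio) of each of the 24 expressed members against the median of its nearest expressed protein-coding genes, up to 10 on each side; the dotted line marks equality. RASA3 was the only one of the 24 with a neighbourhood median above 0.1, and the neighbourhood medians of DUSP10, ETV4, DUSP27 and DUSP5 ran from -0.05 to 0.10.

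Other genes of the relay were compared for context, from lists chosen with earlier results of these data known. For each list, the background on the FPKM + 1 scale was 4.51% of 10321 genes at least 1.5-fold lower and 2.17% as much higher. Of 17 expressed genes of the RAS, RAF, MEK and ERK core, 2 were as much lower and 0 as much higher. Their median log2 ratio was 0.00. MAPK3 (ERK1) was at 4.16 against 7.10 FPKM, a count ratio of 0.590 (0.546 to 0.637). RRAS2, a RAS-related GTPase, was at 0.71 against 2.76 FPKM. Its neighbourhood on chromosome 11 was higher (median 0.27), unlike RRAS2 itself (-1.14). NRAS was at a like level in the libraries (41.5 against 38.9 FPKM).

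Among 15 expressed adaptors and RAS exchange factors, 1 was at least 1.5-fold lower and 0 as much higher (median -0.13). It was GAB2, a docking protein that recruits SHP2, at 2.49 against 6.17 FPKM. All 7 measured genes listed as other RAS GTPase activators or relatives were below 0, with IQGAP1 at the median of -0.30. Of 10321 expressed protein-coding genes, 5583 were below 0. RASA1 to RASA3 were above, though the interval of RASA2 held equal levels. DAB2IP was at 0.39 against 2.69 FPKM (6.90-fold lower by counts), and NF1, the neurofibromin gene, was at 3.47 against 4.66. RASA4B, listed here too, shares its reads with RASA4.

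A further list of 15 expressed genes mixed transcripts induced through ERK, such as FOS and EGR1, with substrates and partners of ERK signalling. The latter include SRF, ELK1, RPS6KA1 and MKNK1, so the list as a whole is no measure of ERK output. In it FOS alone passed 1.5-fold, at 5.15 against 16.7 FPKM, and the median was -0.05. Of these 15, 7 were above 0 and 8 below. EGR1, an immediate early factor, was at 6.15 against 8.93 FPKM, and MYC was at 45.9 against 40.6. The 15 expressed JNK and p38 pathway genes had a median of -0.004 and none passed 1.5-fold in either direction; MAP3K5 (5.33 against 3.90 FPKM) and MAPK11 (2.21 against 1.73) had the largest ratios. Of 10 expressed other ETS factors none passed 1.5-fold (median 0.01), with the ERK-controlled repressor ERF at 10.86 against 15.98 FPKM and FLI1 at 16.7 against 12.9.

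**Figure D5:**
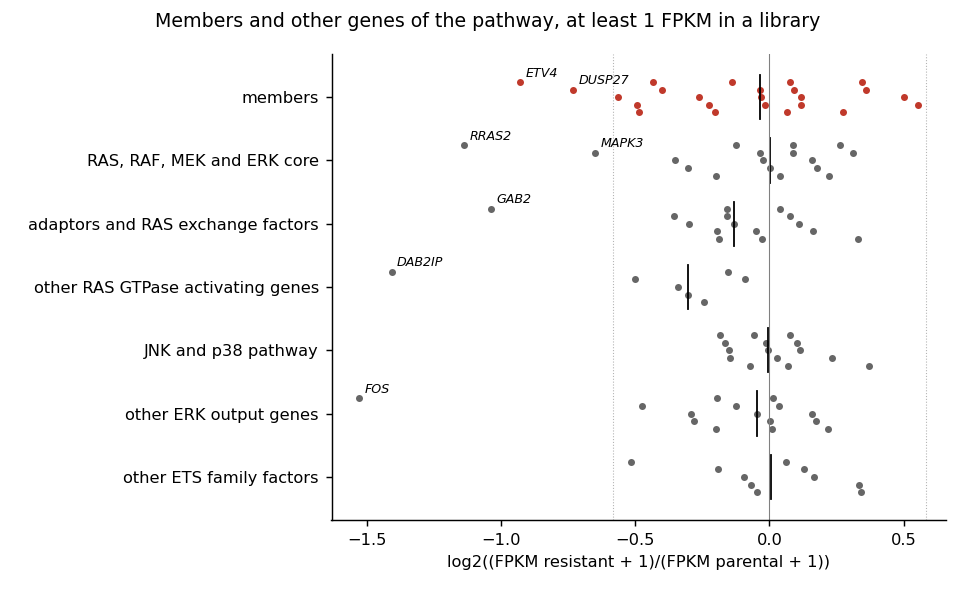
Log2((FPKM + 1) ratio), resistant over parental, of the 24 expressed members (red) and of the expressed genes of 6 related lists (grey); short bars are medians and dotted lines mark 1.5-fold. Genes past the lines are named, and all of them, ETV4, DUSP27, RRAS2, MAPK3, GAB2, DAB2IP and FOS, lay on the lower side. Of all expressed protein-coding genes, 4.51% lay past the lower line and 2.17% past the upper.

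In the table's own pathway column, 13 members carried the MAPK signalling term, 4 the Ras signalling term and 6 the term for transcriptional misregulation in cancer, and 20 carried at least 1 of them. SPRED1, SPRY4 and DUSP27, among those lowest in resistant cells, carried none of the 3.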

How the data were processed

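Poly(A) RNA libraries of resistant and parental THP-1 cells were read from the authors' deposited gene table, which gives FPKM with 2 decimals and whole-number counts per gene. The submitters' processing notes name StringTie 1.3.4d, HISAT2 2.0.4, edgeR, cutadapt 1.9 and DESeq2, and the build GRCh38. The sources used here give no roles for these tools, no annotation release, no strand setting and no rule for multi-mapped reads. The deposited count column of the resistant library carries an unexplained suffix. Over 5803 genes of at least 5 FPKM its log2 ratio differed from that of the deposited FPKM by a constant (-0.025, SD 0.00086), so both were taken as 1 library.

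Measures were log2((FPKM + 1) ratio) for genes reaching 1 FPKM, and count ratios relative to totals with Clopper-Pearson 95% intervals for genes reaching 100 counts in a library. The second rule, its rescaling and the sums over overlapping genes were chosen after seeing the data. Members and lists were chosen with earlier results of these data known. All members were named; of each list, genes 1.5-fold apart or the 2 with the largest ratio were named, some genes of the lists are not reported here, and further genes were chosen after their values were seen. Size rules stood in for tests. Sequence sharing used GENCODE 29 transcripts. Tools were edgeR 4.0.16 (for TMM factors) in R 4.3.3, and scipy 1.17.1, pandas 2.3.3 and matplotlib 3.10.9 in Python 3.11.15. Alternatives covered pseudocount, minimum, scaling and overlapping loci.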

Additional observations from a re-analysis of the deposited data

How the results depend on the processing

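With 1 library a group nothing can be left out. No paired analysis was possible because each group has a single library. The number of members at least 1.5-fold lower was 2 with 1 FPKM added. It was 5 with 0.1 FPKM added or on the CPM scale with 1 CPM added, 0 with 5 FPKM added or with a minimum of 5 FPKM, and 10 by counts alone. Members at least 2-fold lower numbered 0, but 2 with 0.1 FPKM or on the CPM scale and 5 by counts alone. Members at least 1.5-fold higher numbered 0, but 1 with 0.1 FPKM, on the CPM scale and by counts alone. With no minimum the family medians were -0.031 for atypical phosphatases, -0.027 for ETV and 0.21 for RASA. With a minimum of 5 FPKM the median was -0.26 for the 3 remaining MKPs and -0.20 for the mixed list of ERK outputs, substrates and partners. Too few ETV, RASA and other RAS GTPase activating genes were left for a median. With 5 FPKM added the other RAS GTPase activating genes had a median of -0.17. Median-of-ratios and TMM scaling shifted log2 ratios by 0.025 and 0.032. They moved none of the counts made with 1 FPKM added. By counts alone, members at least 1.5-fold higher numbered 2 under either scaling (DUSP5 and RASA3), and TMM left 9 at least 1.5-fold lower and 4 at least 2-fold lower. No called value changed sign in the settings run. Counting overlapping genes on the same strand gave RASA4 a log2 ratio of -0.69, and counting both strands gave ETV4 -0.19, SPRY3 -0.16 and RASA1 0.32. The low counts behind ETV1, ETV2, SPRY1 and DUSP1 limit their precision.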
